A study of Mus musculus with 9 samples.

Results

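The genes described here are the potassium channel genes of the mouse, taken as all genes whose symbol starts with Kcn. On the arrays, 119 probes matched 85 such genes through their RefSeq identifiers. A gene was kept when a probe of it was well above background, by the scanner software's own mark, on every array of at least 1 group, which left 65 genes measured by 89 probes, among 14063 genes tested in all. The symbols also cover accessory subunits and 1 non-coding RNA, Kcnq1ot1. The samples were neurons isolated from the cortex of C57bl/6 mouse embryos at E15 and cultured for 12 days. One group was given 25 µM bicuculline (Bic) for 6 hours, another 50 mM potassium chloride (KCl) for 6 hours, and the control group had no treatment. Each of the 3 groups has 3 arrays, 9 in all. No genetic change is named for any group, and nothing in the sources states that the replicates of a group were separate cultures, so the p-values rest on array-to-array spread alone, which could be technical.

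Potassium channels let potassium flow out of the cell along its gradient, which sets the resting potential, ends the action potential and limits how often a neuron fires. Voltage-gated channels open when the membrane depolarises, calcium- and sodium-activated channels open after the ions that firing brings in, and inward rectifiers and K2P leak channels carry current near rest. Most channels are assembled from several subunits, so the products of several Kcn genes meet in a single pore. Bicuculline blocks GABA-A receptors and so removes synaptic inhibition in a network, while added KCl raises the potassium concentration outside the cell and depolarises neurons and glia directly.

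Between 65% and 75.9% of each array's spots carried the scanner software's well above background mark, 0 spots were saturated, and the 75th percentile of the signal lay between 1586 and 3087. Values below are relative log2 signals, meaning the log2 of the processed signal minus the 75th percentile of the same array. They can be compared between arrays for one gene but not between genes, since each probe binds with its own strength. The median SD between replicates was 0.064 on this scale over all genes tested and 0.070 over the Kcn genes. All 10 neuron markers were well above background on all 9 arrays, as were 7 of 7 astrocyte markers, 6 of 7 of the oligodendrocyte lineage, 3 of 6 of microglia and 4 of 6 of vascular cells and fibroblasts, so signal of glial genes was measured beside that of neuronal genes. In such bulk samples, fewer cells of a type and less RNA per cell cannot be told apart. Of 8 genes known to respond to neuronal activity, among them Fos and Bdnf, 6 were higher and 2 lower with Bic, and 7 were higher and 1 lower with KCl.

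In the reported setting, most of the potassium channel genes were called with each treatment at 6 hours, as were most of all genes with KCl. Fewer were called under some alternatives. Falls outnumbered rises with Bic. With KCl they did so under each scaling of the processed signal, and the order turned under another background correction with 75th percentile scaling. With Bic, 10 of the 65 genes were higher and 33 lower than in control at an adjusted p under 0.05 (limma, Benjamini-Hochberg over all genes), and 22 were not called. The background over all 14063 genes was 17.4% higher and 27% lower, against 15.4% and 50.8% of the Kcn genes. With KCl, 24 were higher, 28 lower and 13 not called. That is 36.9% higher and 43.1% lower against a background of 35.8% and 36%. In the reported setting these shares were near the background. With median scaling the KCl counts were 20 higher and 33 lower of the 65, against 20.9% and 44.8% of all genes. With spike-in scaling they were 17 and 33, against 15.7% and 44.7%. They were 13 and 10 under normexp, a model-based background correction of the raw signals, with 75th percentile scaling, against 13% and 16.4%. The Bic counts were 7 higher and 19 lower with spike-in scaling, against 8.87% and 8.93% of all genes. Under normexp with 75th percentile scaling the Bic counts were 3 and 7, against 3.43% and 2.42%. The median log2 change with Bic was -0.16 over the Kcn genes and -0.03 over all genes, and with KCl it was -0.14 and 0.02. Called rises ranged over log2 0.29 to 0.97 with Bic and 0.16 to 1.66 with KCl, and called falls over -1.19 to -0.15 and -1.56 to -0.15. At least 2-fold and called were 0 rises and 3 falls with Bic, and 7 rises and 3 falls with KCl. These KCl falls include the dim gene Kcne2, counted at its measured value, though its fall has only a bound of at least 1.34-fold. Over all 14063 genes these were 244 rises and 78 falls with Bic, and 822 rises and 398 falls with KCl. Both comparisons share the control arrays.

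**Figure D1:**
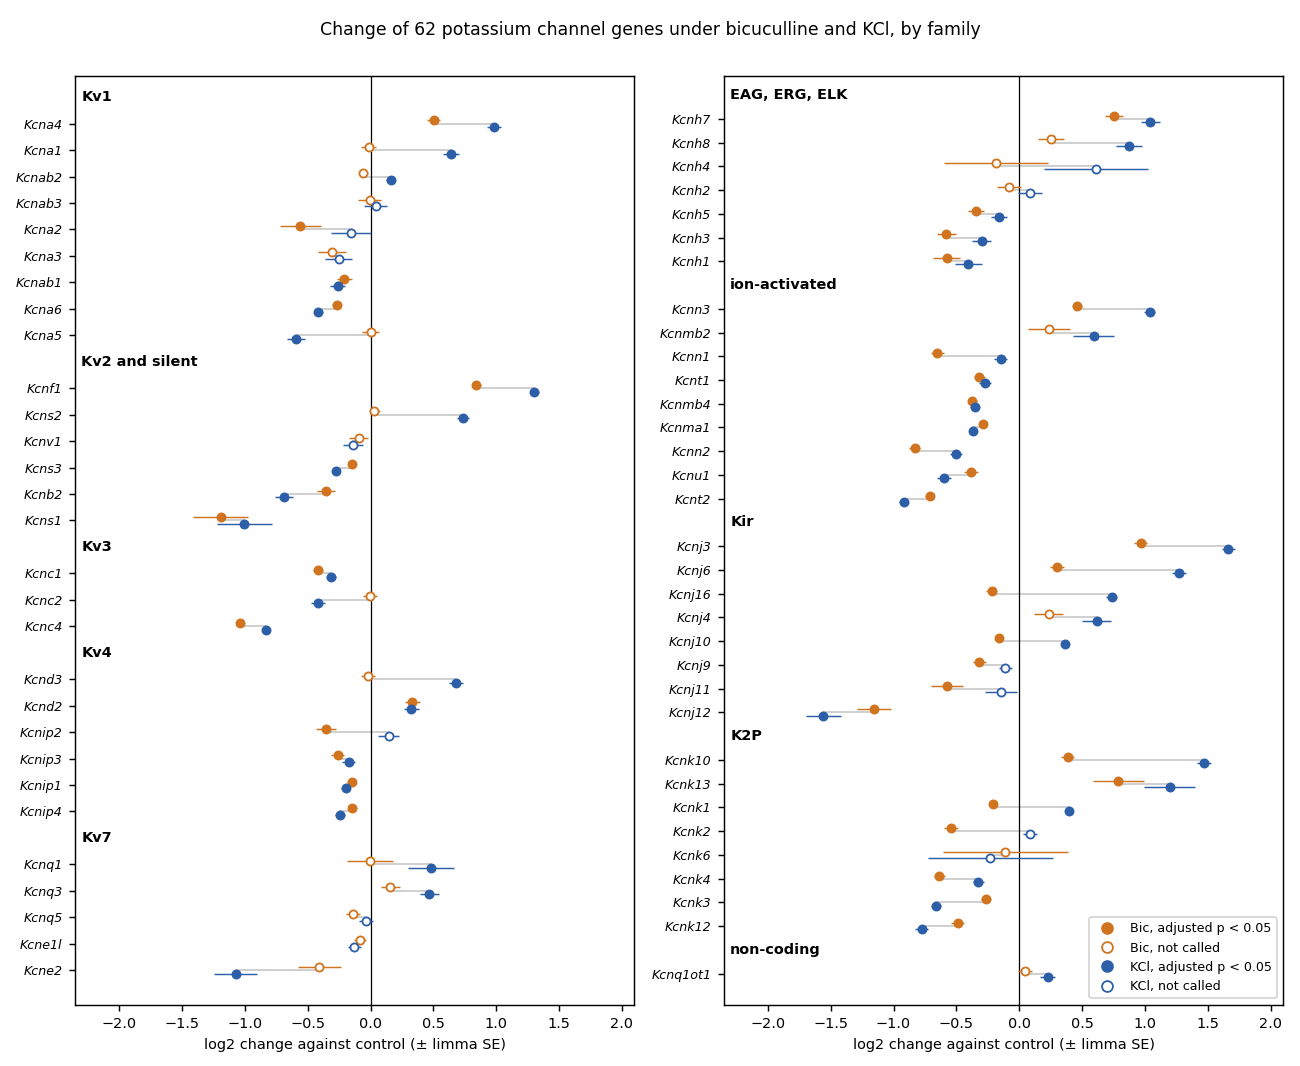
Log2 change against control for 62 of the 65 potassium channel genes, with Bic in orange and KCl in blue, grouped by family. Points are limma estimates, bars are ± 1 standard error, and filled points have an adjusted p under 0.05; the grey line joins both estimates of a gene. Most filled points lie left of 0, while Kcnj3, Kcnk10, Kcnf1, Kcnj6, Kcnk13, Kcnh7 and Kcnn3 lie furthest to the right with KCl.

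Read across both treatments, 10 genes were higher in both, among them Kcna4, Kcnd2, Kcnf1, Kcnh7, Kcnj3, Kcnj6, Kcnk10, Kcnk13 and Kcnn3, and 25 were lower in both. Another 3 genes, Kcnj10, Kcnj16 and Kcnk1, were lower with Bic and higher with KCl. Only with Bic were 5 called, all lower (Kcna2, Kcnip2, Kcnj9, Kcnj11 and Kcnk2). Called only with KCl were 11 higher and 3 lower genes, and 8 genes were called with neither (Kcna3, Kcnab3, Kcne1l, Kcnh2, Kcnh4, Kcnk6, Kcnq5 and Kcnv1). These patterns were not counted over all genes, so whether they are unusual for the Kcn genes was not tested. The shared control arrays tie the 2 comparisons together. A call in one comparison and none in the other does not show that the treatments differ; the direct comparison of KCl with Bic is given further on.

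The promoters of a pair of genes that rose in both comparisons, Kcnj3 and Kcnf1, and of a pair that fell in both, Kcnt2 and Kcnc4, are printed because these genes moved together in opposite directions. Each is the 250 bases before the transcript start that the promoter table gives for the gene, 5′ to 3′ on the gene's strand, from RefSeq on GRCm38.p6, and capitals mark the letters TGACG, the core of the cAMP response element bound by CREB, or their reverse complement. The annotated gene begins further upstream than this start for Kcnj3 and Kcnc4 and inside the printed bases for Kcnt2, so only the Kcnf1 window lies wholly before its gene.
Kcnj3 (chr2:55435720-55435969, plus strand): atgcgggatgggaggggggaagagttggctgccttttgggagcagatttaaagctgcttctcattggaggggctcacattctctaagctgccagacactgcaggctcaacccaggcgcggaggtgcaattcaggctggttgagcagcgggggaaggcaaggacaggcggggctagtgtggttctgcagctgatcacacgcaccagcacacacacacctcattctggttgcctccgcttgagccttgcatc
Kcnf1 (chr12:17176889-17177138, minus strand): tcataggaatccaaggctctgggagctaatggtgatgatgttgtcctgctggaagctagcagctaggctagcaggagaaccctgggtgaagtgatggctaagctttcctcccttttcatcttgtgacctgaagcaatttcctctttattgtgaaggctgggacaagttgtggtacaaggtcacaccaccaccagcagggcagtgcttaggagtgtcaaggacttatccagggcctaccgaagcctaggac
Kcnt2 (chr1:140245468-140245717, plus strand): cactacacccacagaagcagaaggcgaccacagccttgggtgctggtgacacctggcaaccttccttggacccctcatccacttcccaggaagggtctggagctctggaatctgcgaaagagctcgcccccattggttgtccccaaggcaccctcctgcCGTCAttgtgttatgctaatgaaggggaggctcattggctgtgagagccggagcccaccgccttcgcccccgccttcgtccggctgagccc
Kcnc4 (chr3:107458899-107459148, minus strand): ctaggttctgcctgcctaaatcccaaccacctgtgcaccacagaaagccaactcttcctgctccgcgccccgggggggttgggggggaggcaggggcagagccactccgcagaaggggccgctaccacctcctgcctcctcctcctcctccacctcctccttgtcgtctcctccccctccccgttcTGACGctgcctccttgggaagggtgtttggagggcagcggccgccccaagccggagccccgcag

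The motif starts 91 bases before the transcript start used for Kcnt2 and 64 bases before that used for Kcnc4, and it is not in the windows of Kcnj3 and Kcnf1. It is also not in the windows of Kcnj12 and Kcns1, which fell further than Kcnt2 and Kcnc4 in both comparisons and are not printed. Promoter entries matched 48 of the 65 genes, and a gene was counted once over its entries, on both strands. TGACG was found in 10 of 48 Kcn genes (20.8%), against 19.8% of all 27025 genes in the table. None of the 9 matched genes that rose in both comparisons held it, and 6 of the 18 that fell in both did. The full element TGACGTCA, which contains TGACG, was in 0 of 48 genes against 1.77% of all genes. The AP-1 motif TGANTCA, bound by Fos and Jun proteins, was in 3 of 48 (Kcnip3, Kcnip4 and Kcnk2) against 7.82%, and the E-box CACGTG in 2 of 48 (Kcnab1 and Kcnh4) against 6.86%. A match describes letters only, and a missing match says that these letters are not in this window.

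The Kv1 family forms low-threshold channels of axons and terminals, and its Kcnab genes encode the cytoplasmic beta subunits. Of its 9 genes, 1 rose and 3 fell with Bic, and 3 rose and 3 fell with KCl. Kcna4, the rapidly inactivating (A-type) member, stood at 1.27, 1.12 and 1.15 with Bic and at 1.76, 1.62 and 1.61 with KCl, against 0.68, 0.67 and 0.69 in control. The 3 groups did not overlap and KCl lay highest. The gene rose 1.42-fold with Bic (log2 0.50 ± 0.05, SE, adjusted p = 0.00018) and 1.98-fold with KCl (0.98 ± 0.05, adjusted p = 1.4e-06).

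Kcna5, a delayed rectifier, had -3.77, -3.87 and -3.83 with Bic and -4.39, -4.47 and -4.40 with KCl, against -3.68, -3.97 and -3.83 in control. Bic arrays lay within the range of control arrays and every KCl array lay below both. It was 1.51-fold lower with KCl than in control (log2 -0.59 ± 0.07, adjusted p = 0.00011), a direction that turned to 0.54 under normexp with 75th percentile scaling. With Bic the change was 0.00 with a 95% interval of -0.16 to 0.16. Kcna6, the brightest probe of the family, had 2.93, 2.86 and 2.85 with Bic and 2.75, 2.73 and 2.73 with KCl, against 3.11, 3.22 and 3.13 in control. All treated arrays were below all control arrays, and the falls were 1.21-fold with Bic (adjusted p = 0.0007) and 1.33-fold with KCl (adjusted p = 2.3e-05). Of the others, Kcna1, an axonal channel whose human gene is mutated in episodic ataxia, rose 1.56-fold with KCl (adjusted p = 3.8e-05), and Kcnab2 rose 1.12-fold with KCl (adjusted p = 0.0042), which turned to -0.06 on the log2 scale when arrays were scaled on spike-in spots.

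Kv2 channels carry the delayed rectifier current of the soma and proximal dendrites, and the silent subunits Kcnf1, Kcns1 to Kcns3 and Kcnv1 make no channel alone but change Kv2 channels they join. Of these 7 genes, 1 rose and 4 fell with Bic, and 2 rose and 4 fell with KCl. Kcnf1 stood at 2.98, 2.96 and 2.94 with Bic and at 3.44, 3.48 and 3.36 with KCl, against 2.14, 2.13 and 2.10 in control. Its groups were far apart relative to their spread. It rose 1.79-fold with Bic (log2 0.84 ± 0.04, adjusted p = 1.4e-06) and 2.47-fold with KCl (1.30 ± 0.04, adjusted p = 5.7e-08).

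Kcnb2, a Kv2 pore subunit, had -3.06, -3.06 and -3.18 with Bic and -3.37, -3.42 and -3.51 with KCl, against -2.64, -2.89 and -2.71 in control. All treated arrays lay below the controls, and KCl lay lowest. Kcnb2 fell 1.28-fold with Bic (adjusted p = 0.0047) and 1.61-fold with KCl (adjusted p = 5.2e-05), the second of which turned to log2 0.18 under normexp with 75th percentile scaling.

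The silent subunit Kcns1 had -4.84, -4.62 and -4.62 with Bic and -5.08, -4.12 and -4.31 with KCl, against -3.45, -3.55 and -3.50 in control. The KCl arrays were widely spread yet all below the controls. It was 2.29-fold lower with Bic (log2 -1.19 ± 0.22, adjusted p = 0.003) and 2.01-fold lower with KCl (-1.01 ± 0.22, adjusted p = 0.0037), and the KCl direction turned to 0.48 under normexp with 75th percentile scaling. Kcns2 rose 1.67-fold with KCl (adjusted p = 2.4e-06) and was not called with Bic, and Kcns3 fell in both comparisons.

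Kv3 channels open at high voltages and close fast, which lets neurons fire at high rates. Kcnc4, the inactivating member found in axons, had -1.92, -1.87 and -1.86 with Bic and -1.69, -1.66 and -1.69 with KCl, against -0.80, -0.85 and -0.89 in control. Treated and control arrays were separated by far more than the spread within a group. It fell 2.05-fold with Bic (log2 -1.04 ± 0.03, adjusted p = 4.5e-07) and 1.78-fold with KCl (-0.83 ± 0.03, adjusted p = 3.1e-07). Kcnc2, found in interneurons of the cortex, had 1.14, 1.03 and 1.08 with Bic and 0.78, 0.60 and 0.62 with KCl, against 1.03, 1.10 and 1.12 in control. Bic and control arrays overlapped and KCl arrays lay below both. It fell 1.34-fold with KCl (adjusted p = 0.00023), and with Bic the change was 0.00 with a 95% interval of -0.13 to 0.13. Kcnc1, its partner in fast-spiking cells, fell in both comparisons, by 1.34-fold with Bic (adjusted p = 9e-05) and 1.24-fold with KCl (adjusted p = 0.00016).

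Kv4 channels carry the A-type current of dendrites, and the calcium-binding KChIP proteins encoded by Kcnip genes bring them to the membrane and alter their gating. Kcnd2, the main dendritic pore subunit, stood at 2.86, 2.73 and 2.67 with Bic and at 2.84, 2.73 and 2.67 with KCl, against 2.43, 2.45 and 2.38 in control. Both treatments lay above control, by 1.26-fold with Bic (log2 0.33 ± 0.06, adjusted p = 0.003) and 1.25-fold with KCl (0.32 ± 0.06, adjusted p = 0.0017). Neither rise of Kcnd2 was called with spike-in scaling or under normexp with 75th percentile scaling, nor was the KCl rise with median scaling. Over the alternatives the KCl change ranged from log2 0.10 to 0.42. The difference between KCl and Bic was -0.01 with a 95% interval of -0.15 to 0.13, and its sign changed under several settings. Kcnd3 rose 1.60-fold with KCl (adjusted p = 1.3e-05) and was not called with Bic. The KChIP genes Kcnip1, Kcnip3 and Kcnip4 fell in both comparisons and Kcnip2 fell only with Bic, by 1.28-fold (adjusted p = 0.0082). Kcnip3, which also encodes the transcriptional repressor DREAM, fell 1.20-fold with Bic (adjusted p = 0.0048) and 1.13-fold with KCl (adjusted p = 0.018). A dimmer probe of the gene gave log2 -0.02 with Bic, not called, and -0.33 with KCl. The Bic call was lost when all its probes were averaged.

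Kv7 channels of neurons carry the slow M-current that acetylcholine suppresses, and Kcne genes encode single-pass accessory subunits. None of the 6 genes was called with Bic, where 2 changes were positive and 4 negative by limma, and with KCl 3 rose and 1 fell. Before adjustment, the Bic intervals (95%) of Kcne2 (-0.41) and Kcnq5 (-0.14) left out 0. The M-channel gene Kcnq3 rose 1.38-fold with KCl (adjusted p = 0.00078). Kcnq1, known for its role in heart muscle, was called higher with KCl at an adjusted p of 0.043, but its KCl and control arrays overlapped. Kcne2 had -6.03, -5.98 and -5.56 with Bic and -6.18, -6.76 and -6.62 with KCl, against -5.54, -5.47 and -5.32 in control. It was well above background on 2 of 3 Bic arrays, 0 of 3 KCl arrays and 3 of 3 control arrays. Kcne2 was kept through its control arrays alone, the group where its signal was highest. From the control mean and the lowest signal with that mark on each KCl array, it fell at least 1.34-fold with KCl. The measured means differed by log2 -1.07 (limma, adjusted p = 0.00068), with no KCl value well above background. That difference turned to 0.87 under normexp with 75th percentile scaling. Kcne1l, the brightest probe of the family, had 1.82, 1.93 and 1.85 with Bic and 1.90, 1.75 and 1.82 with KCl, against 2.01, 1.90 and 1.95 in control. The 3 groups overlapped, and the change with KCl was -0.13 with an adjusted p of 0.051.

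The EAG, ERG and ELK channels are slow voltage-gated channels related to the cardiac ERG channel. Of 7 genes, 1 rose and 3 fell with Bic, and 2 rose and 3 fell with KCl. Kcnh7, the neuronal ERG member, stood at -4.45, -4.47 and -4.35 with Bic and at -4.09, -4.20 and -4.12 with KCl, against -5.34, -5.13 and -5.06 in control. The groups did not overlap. It rose 1.69-fold with Bic (log2 0.76 ± 0.07, adjusted p = 0.0001) and 2.06-fold with KCl (1.04 ± 0.07, adjusted p = 5.4e-06). Kcnh1, an EAG channel and the brightest probe of the family, had -0.61, -0.58 and -0.88 with Bic and -0.53, -0.36 and -0.67 with KCl, against -0.14, 0.00 and -0.20 in control. Every treated array was below every control array, although the groups were spread more widely than for most members. It fell 1.49-fold with Bic (adjusted p = 0.0032) and 1.33-fold with KCl (adjusted p = 0.0093). Kcnh3 and Kcnh5 fell in both comparisons, but their KCl directions turned under normexp with 75th percentile scaling, and the KCl and control arrays of Kcnh5 overlapped. Kcnh8, an ELK channel, rose 1.83-fold with KCl (adjusted p = 0.00011).

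Channels activated by calcium or sodium set the afterhyperpolarisation that follows spikes. Their symbols start with Kcnm, Kcnn or Kcnt, and Kcnu1, a relative gated by pH and voltage, is grouped with them by symbol. Of these 9 genes, 7 fell with each treatment, and the median log2 change was -0.38 with Bic and -0.35 with KCl. The SK genes, whose channels open on submembrane calcium alone, divided. Kcnn2 had 1.17, 1.14 and 1.19 with Bic and 1.54, 1.46 and 1.49 with KCl, against 2.08, 1.92 and 2.00 in control, and Bic lay lowest. It fell 1.78-fold with Bic (log2 -0.83 ± 0.04, adjusted p = 4.8e-06) and 1.42-fold with KCl (-0.50 ± 0.04, adjusted p = 2.1e-05). Kcnn1 had -1.36, -1.34 and -1.32 with Bic and -0.94, -0.76 and -0.81 with KCl, against -0.76, -0.64 and -0.67 in control. KCl arrays lay just under the control arrays, the nearest pair apart only past the second decimal, and Bic arrays far under both. Kcnn1 fell 1.57-fold with Bic (adjusted p = 3.9e-05) and 1.11-fold with KCl (adjusted p = 0.035), the second turning to log2 0.02 under normexp with 75th percentile scaling. Kcnn3 rose instead, at -3.26, -3.17 and -3.19 with Bic and -2.68, -2.60 and -2.61 with KCl, against -3.63, -3.72 and -3.65 in control. Its 3 groups were separate, and it rose 1.37-fold with Bic (adjusted p = 6.8e-05) and 2.05-fold with KCl (log2 1.04 ± 0.04, adjusted p = 2.6e-07).

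Of the sodium-activated channels, Kcnt2 had -1.07, -1.15 and -1.16 with Bic and -1.34, -1.36 and -1.30 with KCl, against -0.43, -0.40 and -0.41 in control. The control arrays lay close together and above all treated arrays. It fell 1.64-fold with Bic (log2 -0.71 ± 0.03, adjusted p = 2.5e-06) and 1.89-fold with KCl (-0.92 ± 0.03, adjusted p = 1.9e-07), although a dimmer probe of the gene gave -0.17 and 0.02. Kcnt1, its relative, fell 1.25-fold with Bic (adjusted p = 0.00078) and 1.21-fold with KCl (adjusted p = 0.0008), and the KCl direction turned to log2 0.06 when all its probes were averaged. The BK pore gene Kcnma1, whose channel needs both calcium and depolarisation, fell 1.22-fold with Bic (adjusted p = 0.00021) and 1.29-fold with KCl (adjusted p = 1.7e-05). Its neuronal accessory subunit Kcnmb4, the brightest probe of the group, had 3.17, 3.11 and 3.10 with Bic and 3.16, 3.15 and 3.14 with KCl, against 3.49, 3.56 and 3.45 in control. Treated arrays lay below control by nearly the same amount, 1.30-fold with Bic (adjusted p = 0.0001) and 1.28-fold with KCl (adjusted p = 5e-05). Another accessory subunit, Kcnmb2, rose 1.51-fold with KCl (adjusted p = 0.012). Kcnu1, a channel known from sperm, fell 1.30-fold with Bic (adjusted p = 0.0007) and 1.51-fold with KCl (adjusted p = 2.1e-05).

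**Figure D2:**
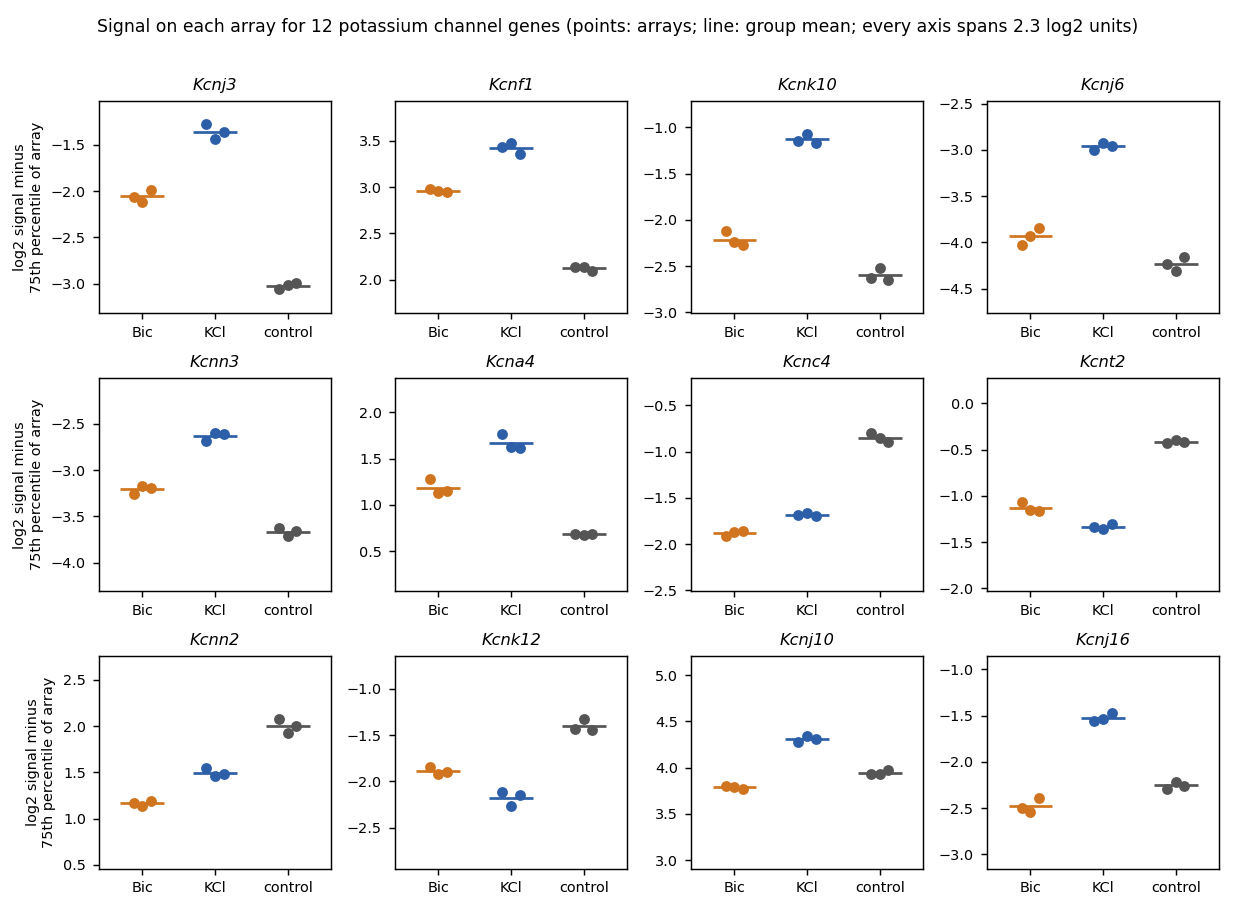
Relative log2 signal on each of the 9 arrays for 12 potassium channel genes, in the order Bic, KCl, control; points are arrays and lines are group means, and every vertical axis spans the same number of log2 units. Kcnj3, Kcnf1, Kcnk10, Kcnj6, Kcnn3 and Kcna4 are higher with both treatments, Kcnc4, Kcnt2, Kcnn2 and Kcnk12 are lower with both, and Kcnj10 and Kcnj16 are lower with Bic and higher with KCl.

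Inward rectifiers (Kir) include the GIRK channels, which G proteins open downstream of GABA-B and other inhibitory receptors. Of the 8 Kir genes, 2 rose and 5 fell with Bic, and 5 rose and 1 fell with KCl. Kcnj3, the GIRK subunit shared by most brain channels of the type, stood at -2.06, -2.12 and -1.99 with Bic and at -1.28, -1.44 and -1.36 with KCl, against -3.06, -3.02 and -2.99 in control. The 3 groups were separate and KCl was highest. Among the members, it had the largest rise in both comparisons, 1.95-fold with Bic (log2 0.97 ± 0.05, adjusted p = 4.7e-06) and 3.17-fold with KCl (1.66 ± 0.05, adjusted p = 8.5e-08). Its partner subunit Kcnj6 had -4.03, -3.93 and -3.85 with Bic and -3.00, -2.93 and -2.96 with KCl, against -4.24, -4.31 and -4.16 in control. The Bic arrays lay only just above control and the KCl arrays well above both. Kcnj6 rose 1.23-fold with Bic (adjusted p = 0.0035) and 2.42-fold with KCl (log2 1.27 ± 0.06, adjusted p = 4.7e-07). The third GIRK gene, Kcnj9, fell 1.25-fold with Bic (adjusted p = 0.0017) and was not called with KCl.

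Kcnj12, a strong rectifier that holds the resting potential, had -3.11, -3.21 and -3.19 with Bic and -3.82, -3.24 and -3.67 with KCl, against -2.10, -1.88 and -2.08 in control. All treated arrays were far below control, with KCl arrays widely spread. It fell 2.23-fold with Bic (log2 -1.16 ± 0.14, adjusted p = 0.00032) and 2.95-fold with KCl (-1.56 ± 0.14, adjusted p = 2.1e-05). In the reported setting this was the largest fall with KCl. Under normexp with 75th percentile scaling neither fall was called (limma, adjusted p = 0.39 with Bic and 0.52 with KCl). Over the alternatives the KCl change ranged from log2 -1.78 to -0.40. Kcnj4, of the same subgroup, rose 1.53-fold with KCl (adjusted p = 0.0017). Kcnj11, the pore of ATP-sensitive channels that couple metabolism to excitability, fell 1.49-fold with Bic (adjusted p = 0.0076).

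The glial Kir genes moved in opposite directions with Bic and KCl. Kcnj10, which in astrocytes takes up potassium released by neurons, had 3.80, 3.79 and 3.77 with Bic and 4.28, 4.34 and 4.31 with KCl, against 3.94, 3.93 and 3.97 in control. Kcnj16, which joins Kcnj10 in mixed channels, had -2.50, -2.54 and -2.40 with Bic and -1.55, -1.53 and -1.47 with KCl, against -2.29, -2.22 and -2.26 in control. For both genes all Bic arrays lay below and all KCl arrays above control. Kcnj10 fell 1.12-fold with Bic (log2 -0.16 ± 0.03, adjusted p = 0.0028) and rose 1.29-fold with KCl (0.37 ± 0.03, adjusted p = 1e-05). Kcnj16 fell 1.17-fold with Bic (-0.22 ± 0.04, adjusted p = 0.0047) and rose 1.66-fold with KCl (0.74 ± 0.04, adjusted p = 2.4e-06). The mean signal of the 7 astrocyte markers moved the same way. It lay at 1.91 to 1.94 with Bic and 2.16 to 2.33 with KCl, against 2.08 to 2.14 in control. Of these markers, 0 were up and 3 down for Bic, and 4 up and 2 down for KCl. Their log2 changes ran from -0.87 to 0.04 with Bic (median -0.08) and from -0.69 to 0.66 with KCl (median 0.20). The means of the 6 tested oligodendrocyte lineage markers and of the 4 tested vascular and fibroblast markers did so as well. The first lay at 1.25 to 1.31 with Bic and 1.51 to 1.53 with KCl, against 1.37 to 1.39 in control. Of its markers, 1 was up and 4 down for Bic, and 4 up and 2 down for KCl. The second lay at -0.48 to -0.45 with Bic and 0.06 to 0.13 with KCl, against -0.35 to -0.24 in control. Of its markers, 0 were up and 2 down for Bic, and 3 up and 1 down for KCl. The part of these markers' signal in the Kcnj10 and Kcnj16 changes was not tested. With spike-in scaling the Kcnj10 changes were -0.16 with Bic and 0.14 with KCl and were not called, nor was the -0.22 of Kcnj16 with Bic.

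K2P channels are open at rest and set the leak conductance. Of the 8 K2P genes, 2 rose and 5 fell with Bic, and 3 rose and 3 fell with KCl. Kcnk10, a mechanically and lipid-gated channel of the TREK group, stood at -2.13, -2.24 and -2.28 with Bic and at -1.15, -1.07 and -1.17 with KCl, against -2.63, -2.52 and -2.65 in control. It rose 1.31-fold with Bic (log2 0.39 ± 0.05, adjusted p = 0.0007) and 2.77-fold with KCl (1.47 ± 0.05, adjusted p = 1.8e-07). Its relatives in the group did not follow it. Kcnk4 had -0.96, -0.95 and -0.94 with Bic and -0.72, -0.67 and -0.55 with KCl, against -0.32, -0.34 and -0.30 in control, and it fell 1.55-fold with Bic (adjusted p = 1.6e-05) and 1.25-fold with KCl (adjusted p = 0.00023). Kcnk2 fell 1.46-fold with Bic (adjusted p = 0.00012) and was not called with KCl.

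Kcnk3, an acid-sensitive leak channel of the TASK group, had -1.61, -1.60 and -1.59 with Bic and -1.98, -1.94 and -2.08 with KCl, against -1.35, -1.30 and -1.36 in control. The groups were separate with KCl lowest, at falls of 1.20-fold with Bic (adjusted p = 0.0013) and 1.58-fold with KCl (adjusted p = 2.7e-06). The THIK genes split in the same way as the TREK genes. Kcnk12 had -1.84, -1.92 and -1.90 with Bic and -2.11, -2.27 and -2.15 with KCl, against -1.43, -1.32 and -1.44 in control, and it fell 1.40-fold with Bic (adjusted p = 0.00016) and 1.71-fold with KCl (adjusted p = 3.9e-06). Kcnk13, best known from microglia, had -2.19, -2.24 and -1.74 with Bic and -1.47, -1.62 and -1.86 with KCl, against -3.08, -3.02 and -2.44 in control. The highest Bic and control arrays were those on the slide that also held 2 KCl arrays. Kcnk13 rose 1.73-fold with Bic (log2 0.79 ± 0.20, adjusted p = 0.015) and 2.29-fold with KCl (1.20 ± 0.20, adjusted p = 0.001), and within that slide the differences were 0.70 and 0.89. The Bic call was lost without control 1 (0.67) or control 2 (0.70). Of the 6 microglia markers, 3 were tested and Itgam, P2ry12 and Tmem119 were not kept. Their mean signal lay between -2.25 and -1.63 with Bic and between -1.94 and -1.37 with KCl, against -1.87 to -1.82 in control, and its part in the Kcnk13 change was not tested. Kcnk1, the brightest K2P probe, had 2.03, 2.05 and 2.07 with Bic and 2.69, 2.61 and 2.67 with KCl, against 2.26, 2.27 and 2.24 in control. It fell 1.15-fold with Bic (log2 -0.21 ± 0.03, adjusted p = 0.0011) and rose 1.32-fold with KCl (0.40 ± 0.03, adjusted p = 1.1e-05), the same directions as Kcnj10 and Kcnj16. With spike-in scaling these values were -0.21 and 0.17, and neither was called.

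The non-coding RNA Kcnq1ot1, transcribed antisense to Kcnq1 and known for silencing neighbouring genes on the paternal chromosome, had -0.31, -0.27 and -0.23 with Bic and -0.16, -0.15 and 0.04 with KCl, against -0.35, -0.32 and -0.27 in control. It was 1.17-fold higher with KCl (adjusted p = 0.0083), and Bic and control arrays overlapped. Its 4 probes did not move alike, with changes from -0.09 to 0.27 for KCl.

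KCl was compared with Bic directly to see where the treatments differ. With KCl, 33 of the 65 genes were higher and 12 lower than with Bic, against 36.1% and 28.8% of all genes, and 20 were not called. The shares among the Kcn genes were 50.8% and 18.5%, and the median log2 difference was 0.20 against 0.07 over all genes. The largest rises were those of Kcnk10 (2.12-fold, log2 1.09 ± 0.05, adjusted p = 2.1e-06), Kcnj6 (1.97-fold, 0.98 ± 0.06, adjusted p = 4.4e-06) and Kcnj16 (1.94-fold, 0.96 ± 0.04, adjusted p = 1.7e-06). Of the 10 genes higher in both treatments than in control, 8 were higher with KCl than with Bic, Kcnd2 and Kcnk13 being the exceptions. The 25 genes lower in both divided into 8 that lay higher with KCl, 9 that lay lower with KCl and 8 not called. Kcnc4, Kcnn1 and Kcnn2 were among the first, though Kcnc4 turned under spike-in scaling, and Kcnt2, Kcnk12 and Kcnk3 among the second, though these 3 turned under normexp with 75th percentile scaling. Kcna5 was 1.51-fold and Kcnc2 1.33-fold lower with KCl than with Bic, and Kcna5 turned under normexp with 75th percentile scaling. Kcne2 was not well above background on any KCl array, so its fall has only a bound of at least 1.01-fold, and its direction also turned under that setting.

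Proteins that hold or modulate these channels changed in both directions. Of 21 genes for partners and anchors, 17 were tested, with 3 higher and 7 lower for Bic and 4 higher and 5 lower for KCl. The shares were 17.6% and 41.2% with Bic, against 17.4% and 27% of all genes. With KCl they were 23.5% and 29.4%, against 35.8% and 36%. The median log2 changes were -0.12 with Bic and 0.02 with KCl, against -0.03 and 0.02 over all genes. Abcc8, the sulfonylurea receptor that forms ATP-sensitive channels with Kcnj11, fell 1.40-fold with Bic (adjusted p = 0.0011) and 1.32-fold with KCl (adjusted p = 0.0015). Amigo1, an auxiliary subunit of Kv2 channels, fell 1.37-fold with Bic (adjusted p = 0.00032) and 1.33-fold with KCl (adjusted p = 0.00025), the second turning to log2 0.13 under normexp with 75th percentile scaling and to 0.14 over all its probes. Ank3, which anchors Kv7 channels at the axon initial segment, fell 1.33-fold with Bic (adjusted p = 0.00014) and 1.29-fold with KCl (adjusted p = 9.8e-05), though with all its probes averaged the KCl change was log2 -0.10 and not called. Among the called genes, the largest changes with KCl were those of Nedd4l, a ubiquitin ligase acting on Kv7 channels (1.67-fold higher, adjusted p = 9.2e-06), Akap5, a kinase anchor of Kv7 channels (1.50-fold lower, adjusted p = 1.2e-06), and Lgi1, which acts on Kv1 channels (1.50-fold higher, adjusted p = 8.8e-06, but log2 0.05 and not called over all its probes).

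Transport genes restore the potassium gradient that open channels run down. Of 11 pump and cotransporter genes, 10 were tested, with 2 higher and 2 lower for Bic and 6 higher and 2 lower for KCl. The shares were 20% and 20% with Bic, against 17.4% and 27% of all genes. With KCl they were 60% and 20%, against 35.8% and 36%. The median log2 changes were -0.02 with Bic and 0.15 with KCl, against -0.03 and 0.02 over all genes. With median or spike-in scaling 2 of the 10 were called higher with KCl, against 20.9% and 15.7% of all genes. Under these scalings the share was near that of all genes. Atp1b1, a beta subunit of the sodium pump, rose 1.37-fold with Bic (adjusted p = 0.0011) and 1.65-fold with KCl (adjusted p = 2.9e-05). Slc12a2, which imports sodium, potassium and chloride, fell 1.43-fold with Bic (adjusted p = 0.00011) and 1.31-fold with KCl (adjusted p = 0.00019). Slc12a5, the neuronal chloride exporter, fell 1.18-fold with Bic (adjusted p = 0.0027) and 1.18-fold with KCl (adjusted p = 0.0013).

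Of the 20 Kcn genes not kept, 8 were well above background on 0 of the 9 arrays (Kcne4, Kcng3, Kcnj1, Kcnj2, Kcnj5, Kcnj15, Kcnmb1 and Kcnv2). The other 12 passed on some arrays but on no whole group. They included Kcnk5 and Kcnn4. These genes have only an upper bound here.

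Different probes of a gene did not always give the same change. For 19 genes 43 probes were kept, and each probe was fitted on its own over 20992 named probes. For Kcnn2, Kcnk3, Kcnh1 and Kcnd2 all kept probes had the same sign in both comparisons with control. The brightest probe of Kcnv1, a silent subunit, was not called, while its other probe gave -0.86 with Bic and -1.32 with KCl. The second Kcns2 probe gave 0.02 with KCl against 0.74 for the brightest. The 2 Kcnq5 probes match different transcripts, and the dimmer was lower with KCl by log2 -0.25 while the brighter stood at -0.03. Which transcripts each probe binds was not tested.

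**Figure D3:**
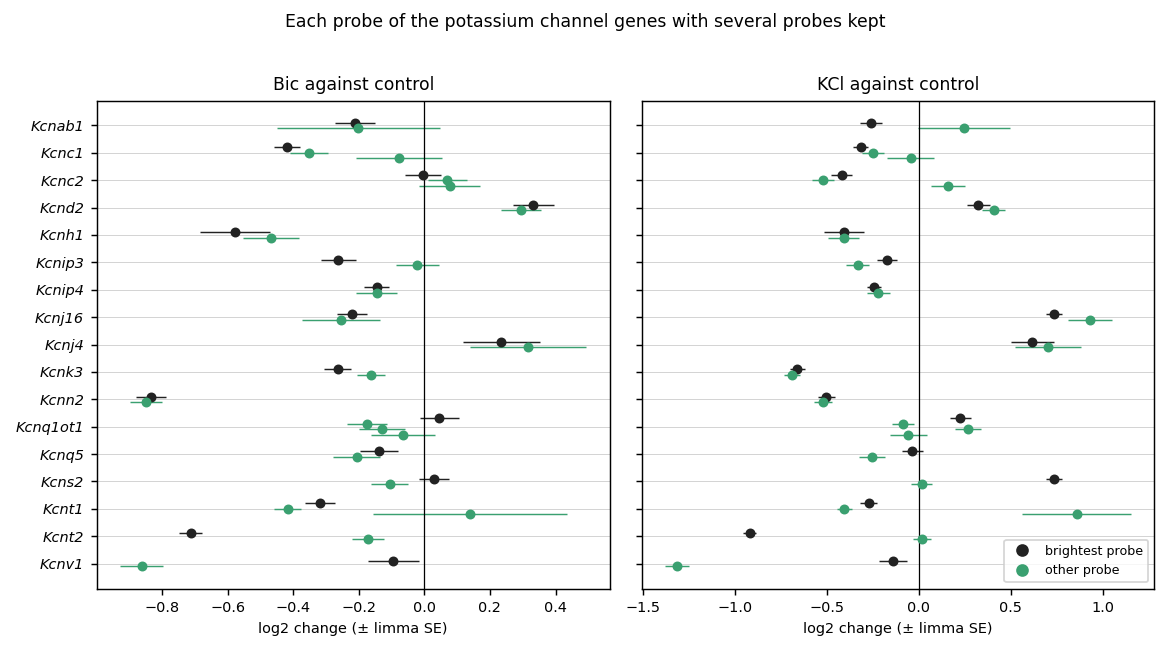
Log2 change against control (limma estimate ± 1 standard error) of each kept probe of 17 of the 19 potassium channel genes with several probes, Bic on the left and KCl on the right; the brightest probe of a gene is black and the others green. Probes of Kcnn2, Kcnk3 and Kcnd2 lie together, and those of Kcnv1, Kcnt2 and Kcns2 lie apart.

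The counts depended on the scaling between arrays. The balance of all genes moved with it: the median over all genes for KCl against control was -0.135 with median scaling and -0.20 with spike-in scaling, against 0.02 as reported, and for KCl against Bic it was -0.155 with spike-in scaling. Of all calls for KCl against control, 49.9% were higher as reported, 31.8% with median scaling and 25.9% with spike-in scaling. These scalings move all genes of an array by the same amount, so the Kcn median keeps its distance from that of all genes. Under normexp with 75th percentile scaling, which is not such a shift, the Kcn median for KCl against control was 0.196 and that of all genes 0.081, the opposite order to the reported -0.14 and 0.02. The shares called, unlike the distance between medians, moved with median and spike-in scaling. In Bic against control the lower calls numbered 33 as reported and 19 with spike-in scaling, against 27% and 8.93% of all genes. Higher calls for KCl against control numbered 24 and 17 of the 65, against 35.8% and 15.7%. Called in the same direction under all 20 alternatives were 10 of the 43 calls for Bic, 21 of the 52 for KCl against control and 9 of the 45 for KCl against Bic. The first group includes Kcna4, Kcnf1 and Kcnj3 among the rises and Kcnc4, Kcnk2, Kcnk4, Kcnn1, Kcnn2 and Kcnt2 among the falls.

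The arrays lay on 3 slides, of which slide 1 held 2 Bic and 2 control arrays, slide 2 held 1 Bic, 2 KCl and 1 control array, and slide 3 held 1 KCl array. Within slides 1 and 2, all 43 genes called for Bic had the same sign as the reported change. Within slide 2 this held for all 52 genes called for KCl against control and all 45 called for KCl against Bic, with no test. These signs come from arrays that also gave the calls. With the slide as a block, all 43 Bic calls passed, 47 of the 52 calls for KCl against control did, and 28 of the 45 for KCl against Bic. Lost for KCl against control were Kcnh1, Kcnh5, Kcnmb2, Kcnn1 and Kcnq1. The 17 lost for KCl against Bic included Kcna6, Kcnb2, Kcnh7, Kcnj4, Kcnj11, Kcnj12, Kcnma1 and Kcns3. Deviations from the group means correlated at 0.162 to 0.742 over all 9 pairs of arrays of different groups that shared a slide.

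**Figure D4:**
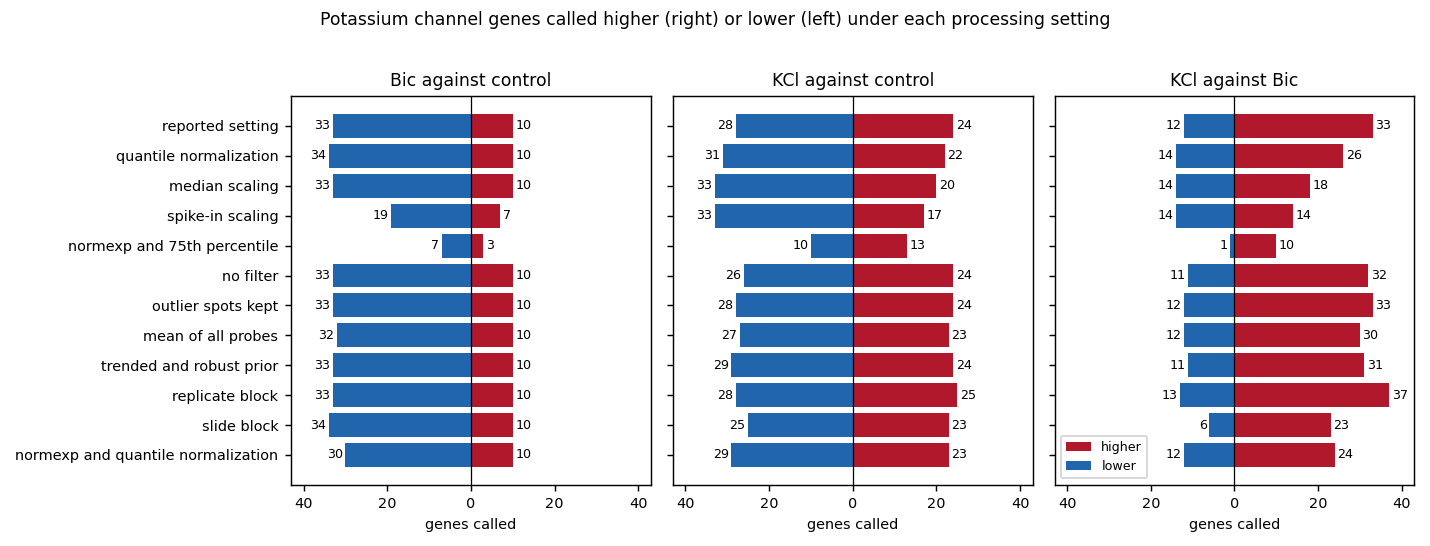
Number of the 65 potassium channel genes called higher (red, right) and lower (blue, left) in each comparison under the reported setting and 11 alternatives, at an adjusted p under 0.05. Falls outnumber rises for Bic in every setting shown, while for KCl against control the order turns under normexp with 75th percentile scaling.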

How the data were processed

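The deposited values used are processed signal intensity, background-subtracted and spatially detrended within each array by the scanner software Feature Extraction (10.7.3.1 in the file headers, 10.5.1.1 in the submitters' processing notes). The authors' deposited series values equalled this intensity on all 45018 features. From the deposited intensity the log2 was taken, and each array was centred on the 75th percentile of its 43379 non-control spots. Outlier spots, 60 to 230 on an array, were dropped and the remaining spots of a probe were averaged. This left 39 values missing among the genes tested. RefSeq identifiers were matched to symbols of GRCm38.p6, giving 18327 genes. A probe was kept where all arrays of 1 group or more marked it as well above background with values from no fewer than 2 arrays in each, and the brightest probe stood for its gene, which left 14063 genes.

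All 9 arrays entered 1 fit with limma 3.58.1 in R 4.3.3 (6 residual and 1.76 prior degrees of freedom), with Benjamini-Hochberg adjustment over all genes of a comparison, two-sided at 0.05. Deviations from the group means correlated at -0.571 to 0.742 over 9 pairs of arrays with the same replicate number, and only the 3 Bic and control pairs, each on 1 slide, were over 0.1. The number of arrays limits the precision. Raw spot and local background intensity, also deposited, served for the normexp alternative (offset 50). The code was tested on simulated data. Families follow symbols. Values on all arrays are given for 30 of the 31 genes that are the 8 largest rises and falls against control, the 3 largest for KCl against Bic, and the brightest of each family. A few genes are counted but not reported here. The members and the lists of partner, transport and marker genes were chosen with earlier results of these data known.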

Additional observations from a re-analysis of the deposited data

How the results depend on the processing

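Alternatives were other scalings, normexp background correction, no filter, outlier spots kept, mean of all probes, another prior, replicate number or slide as a block, and leaving out each array. Normexp followed by quantile normalization, the fit of each probe and the values within slides were chosen after seeing the data. For Bic against control the Kcn counts moved to 19 lower with spike-in scaling, and to 3 higher and 7 lower under normexp with 75th percentile scaling (normexp below). For KCl against control they moved to 13 higher and 10 lower with normexp. For KCl against Bic they moved to 18 higher with median scaling, 14 with spike-in scaling and 10 with normexp, where 1 was lower, and to 6 lower with the slide block. Leaving out an array gave 9 to 12 higher and 30 to 34 lower for Bic, 23 to 26 higher and 25 to 31 lower for KCl, and 29 to 35 higher and 10 to 12 lower for KCl against Bic. The share of higher calls over all genes was 58.7% (normexp) and 49.8% (spike-in) against 39.2% for Bic, and 43% (quantile), 33.9% (median), 19.7% (spike-in) and 45.2% (normexp) against 55.6% for KCl against Bic. For KCl it was 31.8% (median) and 25.9% (spike-in) against 49.9%, and for KCl against Bic 43.7% with normexp and quantile normalization. Over all genes, Bic gave 1577 higher calls with median scaling, 1247 with spike-in scaling and 483 with normexp against 2444, and 1256 lower with spike-in scaling and 340 with normexp against 3798. KCl gave 2942 (median), 2201 (spike-in) and 1827 (normexp) higher against 5037, and 2308 lower (normexp) against 5063. KCl against Bic gave 2501 (median), 1283 (spike-in) and 1099 (normexp) higher against 5076, and 1334 lower (normexp) against 4047.

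With limma, partners and anchors moved for Bic to 1 higher (median and spike-in scaling) or 0 (normexp), 1 to 3 without an array, and to 3 lower (spike-in) or 0 (normexp, where 0 were higher and 4 lower at an unadjusted p under 0.05). For KCl they moved to 2 higher (normexp) and 2 lower (mean of all probes). Pumps and cotransporters moved for Bic to 1 higher (median and spike-in) or 0 (normexp), 1 to 2 without an array, and to 1 lower (spike-in) or 0 (normexp, where 1 was higher and 1 lower at an unadjusted p under 0.05). For KCl they moved to 2 higher (median, spike-in and normexp) or 3 (normexp with quantile normalization) and 1 lower (normexp).

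Reversed for KCl against control with normexp were Kcna5 (0.54), Kcnb2 (0.18), Kcne2 (0.87), Kcnh3 (0.0162), Kcnh5 (0.175), Kcnn1 (0.0164), Kcns1 (0.48) and Amigo1 (0.13), with spike-in scaling Kcnab2 (-0.0642), and over all probes Kcnt1 (0.0603) and Amigo1 (0.14). Reversed for KCl against Bic with normexp were Kcna5 (0.54), Kcnb2 (0.44), Kcne2 (1.03), Kcnj12 (0.51), Kcnk12 (0.16), Kcnk3 (0.0322), Kcnma1 (0.00391, and 0.00399 with quantile normalization), Kcns3 (0.0880), Kcnt2 (0.0277), Kcnu1 (0.29) and the uncalled Kcnmb4 (-0.21). Spike-in scaling reversed Kcnab2 (-0.00665), Kcnc1 (-0.122, and -0.0192 with median scaling), Kcnc4 (-0.0225), Kcnh1 (-0.0566), Kcnh5 (-0.0424), Kcnj9 (-0.01945), Kcnmb4 (-0.20), Kcnq1ot1 (-0.0453) and Kcns1 (-0.0387) in that comparison. Among uncalled changes near 0, Kcnmb4 was also -0.10 with quantile and with median scaling and -0.16 with normexp and quantile normalization, Kcns1 -0.0209 with quantile normalization and -0.00293 to 0.475 without an array, and Kcnd2 0.0513 over all probes, 0.0915 with the slide block and -0.0564 to 0.04545 without an array. For Bic against control these were Kcna5, at -0.0276 (quantile), -0.0345 (median scaling), -0.00222 (normexp), -0.00696 (normexp with quantile normalization) and -0.0690 to 0.0750 without an array, Kcnc2, at 0.0207 (quantile), 0.0473 (all probes) and -0.0329 to 0.0228 without an array, and Kcnq1ot1, at -0.0815 over all probes. The cause of these moves was not tested.

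Leaving out single arrays ended some calls whose direction stayed. For Bic these were Kcna2 (-0.51 without Bic 1 or Bic 2, -0.56 without control 2, -0.48 without control 3), Kcnab1 (-0.24 to -0.18, lost without Bic 1, Bic 3, control 1 or control 2), Kcnip4 (-0.12 without Bic 1), Kcnk13 (0.67 without control 1, 0.70 without control 2), and Nedd4l (0.12 to 0.23, lost without Bic 2, Bic 3, KCl 1, control 1 or control 2). For KCl these were Kcnh5 (-0.21 to -0.11 over the arrays left out), Kcnip3 (-0.21 to -0.13), Kcnn1 (-0.18 to -0.09) and Kcnq1 (0.29 to 0.64), each lost without any of 3 or more arrays. For KCl against Bic these were Kcnc1 (0.08 to 0.13), Kcnh5 (0.14 to 0.24), Kcnj4 (0.25 to 0.52), Kcnj11 (0.28 to 0.55), Kcnj12 (-0.57 to -0.28), Kcnma1 (-0.09 to -0.06), Kcnq1 (0.38 to 0.58) and Kcnq1ot1 (0.12 to 0.22). Arrays of the same replicate number did not deviate together for KCl against control or KCl against Bic, and did for Bic against control. With the replicate block 10 were higher and 33 lower for Bic, 25 and 28 for KCl, and 37 and 13 for KCl against Bic. Signal over background limits the dim genes, of which 20 did not pass the background mark, and Kcne2 has only a bound with KCl.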

Other observations

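Kcnh4, an ELK channel called in neither comparison with control, had -5.28, -5.52 and -4.36 with Bic and -4.08, -4.02 and -4.67 with KCl, against -5.42, -5.10 and -4.08 in control. Its highest Bic array, its highest control array and its 2 highest KCl arrays all lay on slide 2.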
